A study of Bos taurus with 24 samples.

Results

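Both arms of the miR-22 and miR-423 hairpins were followed in bovine plasma through the oestrous cycle. These 4 miRNAs, bta-miR-22-3p, bta-miR-22-5p, bta-miR-423-5p and bta-miR-423-3p, were taken by name from the 870 miRNAs of the deposited count table. They were chosen by their level in these same libraries, where miR-22-3p and miR-423-5p are among the most abundant miRNAs, so the levels and their order below are a description and were not tested. All 4 were among the 181 miRNAs that exceeded 25 RPMM (RPM, the reads of a miRNA scaled to the genome-mapped reads of its library) on every day in 6 or more of its 8 libraries.

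Plasma came from 8 yearling Holstein-Friesian heifers on Day 0 (oestrus), Day 8 and Day 16 of the same cycle, which gave 24 small-RNA libraries, 8 for each day. All heifers had been synchronised with a progesterone insert, buserelin and cloprostenol, and no other treatment separated the days. Libraries held 1299679 to 4700764 miRNA counts, and the 4 miRNAs together took 10.2% to 21.3% of them. Markers of blood cells were present in every library. The 3 erythrocyte markers miR-486, miR-451 and miR-144 summed to 6.65% to 45% of the counts on Day 0, 9.17% to 38.8% on Day 8 and 14.7% to 47.7% on Day 16. Most of each sum was miR-486, which alone took 6.07% to 42.2%, 8.26% to 36.8% and 13.1% to 45.1% on the 3 days in turn. The ovary and testis miRNA miR-202 was at 0 counts in 11 of the 24 libraries and reached at most 1.24 RPMM. In plasma, fewer releasing cells and less RNA per cell cannot be told apart.

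A miRNA hairpin is cut by Dicer into a duplex of 2 strands, and the strand that Argonaute retains guides it to target mRNAs through its seed, bases 2 to 8, while the other strand is mostly degraded. In human and mouse cells, miR-22-3p is known to repress SIRT1 and oestrogen receptor alpha, and it is expressed in many tissues, heart and blood cells among them. miR-423 lies in an intron of NSRP1 in human. Its 5p arm has been studied in human plasma as a marker of heart failure, and both arms have served as reference miRNAs in PCR of human serum and plasma.

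The sequences of the 4 miRNAs are shown because the arms of a hairpin are told apart, and their targets set, by sequence. They are given from the isomiR list of the study, 5′ to 3′, with the seed in capitals. The list held miR-22-5p only in a form 2 bases shorter at its 3′ end, which is the one shown, and the last sequence is a form of miR-423-3p that lacks its first base.
miR-22-3p: aAGCUGCCaguugaagaacug
miR-22-5p, 3′-shortened: aGUUCUUCaguggcaagcuu
miR-423-5p: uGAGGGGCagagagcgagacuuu
miR-423-3p: aAGCUCGGucugaggccccucagu
miR-423-3p, 5′-shortened: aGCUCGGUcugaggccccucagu

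The 3p arms of both hairpins begin with the same 5 bases and part within the seed, so the 4 miRNAs have 4 different seeds. The loss of the first base moves the seed of miR-423-3p by 1 base, from AGCUCGG to GCUCGGU. None of the other sequences listed as exact mature miRNAs, of which there were 90 for miR-22-3p and each miR-423 arm and 91 for miR-22-5p, shared a seed with any of the 4. These sequences were compared base by base from the 5′ end, without gaps or shifts. The nearest differed at 10 positions from miR-423-5p and at 11 from each of the other 3, and counting allowed 1 mismatch. Most of the 870 miRNAs of the count table had no exact sequence in the list, so reads shared with them were not tested. The miR-423 arms were rich in G and C, at 56.5% for the 5p arm and 62.5% for the 3p arm, which placed them 10 and 4 from the top among 91 exact sequences with a median of 45.5%. miR-22-3p had 47.6%.

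Both hairpins lie on chromosome 19. The coordinates are those of the deposited table, which states no build. miR-22-3p is at chr19:22901906-22901926 and miR-22-5p at chr19:22901943-22901964 on the minus strand. On the plus strand, miR-423-5p is at chr19:21234499-21234521 and miR-423-3p at chr19:21234534-21234557. The hairpins are 1667407 bases apart. No other miRNA that the table lists with a single position on chromosome 19 lies within 50000 bases of either. Rows without such a position were not compared. In the RefSeq annotation of the assembly ARS-UCD2.0, MIR423 lies within the span of NSRP1, as in human, and MIR22 within that of TLCD2, between PRPF8 and WDR81.

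bta-miR-22-3p was the most abundant of the 4 arms, at 75030 ± 17362 RPMM (SD, n = 24 libraries). On Day 0 its level was 47975 RPMM in the lowest library (heifer 20), 78522 at the median and 99748 in the highest (heifer 35). On Day 8 it ran from 53227 (heifer 18) through a median of 86457 to 103955 RPMM (heifer 34), and on Day 16 from 48050 (heifer 21) through 65469 to 87137 RPMM (heifer 35). The days overlapped over most of their range. Ranked within a library, miR-22-3p was first or next to first in all 24, and miR-486 exceeded it in 18 of them. The miRNA below it in mean level, miR-192, known from intestine and liver, was at 36986 ± 11670 RPMM and was the lower of both in all 24 libraries.

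bta-miR-423-5p had a mean of 25325 ± 4623 RPMM (SD, n = 24). Its lowest, median and highest levels were 11668, 25237 and 30380 RPMM on Day 0, 20108, 27292 and 32942 RPMM on Day 8, and 20248, 25546 and 29821 RPMM on Day 16. The Day 0 library of heifer 16 lay below all other 23, followed by that of heifer 18 on Day 0 at 18052 RPMM. The neighbours of miR-423-5p in mean level were miR-191, a platelet miRNA, at 29902 ± 10667 RPMM and miR-92a at 25110 ± 6018 RPMM (SD, n = 24). Their means lie within 1 SD of it, and miR-191 was the higher in 14 of 24 libraries and miR-92a in 12.

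bta-miR-423-3p, the less abundant arm of its hairpin, had a mean of 11235 ± 1702 RPMM (SD, n = 24). It ran from 9490 through a median of 12054 to 14379 RPMM on Day 0, from 8710 through 11267 to 13414 RPMM on Day 8 and from 7942 through 10248 to 12970 RPMM on Day 16. Heifer 18 gave both the highest library, on Day 0, and the lowest, on Day 16. The erythrocyte miRNA miR-451 (11568 ± 4616 RPMM) and miR-140 (11232 ± 3102 RPMM) stood next to it and were the higher in 13 and 12 of 24 libraries.

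bta-miR-22-5p was scarce, at 93.6 ± 26.7 RPMM (SD, n = 24), which placed it 146 in mean level. Its lowest, median and highest levels were 62.7, 107.8 and 146.8 RPMM on Day 0, 61.5, 92.9 and 129.0 on Day 8 and 52.3, 85.4 and 128.6 on Day 16. These rest on 155 to 620 counts, so that counting alone gives an error of 8.03% in the smallest, against 0.655% or less for the other 3 arms. The order miR-22-3p, miR-423-5p, miR-423-3p, miR-22-5p held in 24 of 24 libraries, with ratios of the mean levels of 2.96, 2.25 and 120.0 from each to the next.

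**Figure D1:**
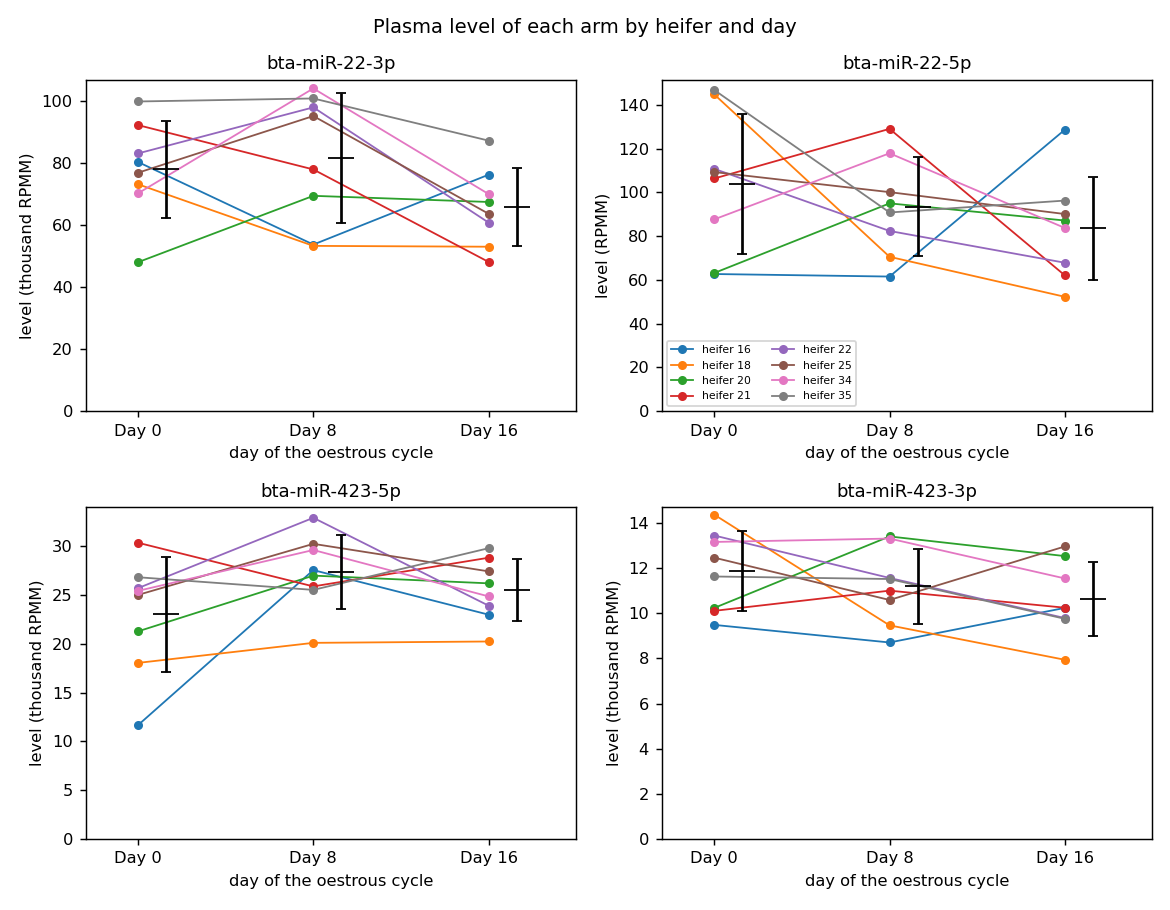
Level of each arm (RPMM, on a scale of its own in each panel) on Days 0, 8 and 16, with 1 line for each of the 8 heifers and black bars for the mean ± SD of a day. Levels of the 3 days overlap in every panel, and miR-423-5p in heifer 16 on Day 0, at 11668 RPMM, is the lowest point of its panel.

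The hairpins differed in how unequal their arms were. For miR-22, the 3p arm had 787 times the count of the 5p arm at the median of the 24 libraries, and for miR-423, the 5p arm had 2.22 times the count of the 3p arm. Among the 11 miRNAs for which both arms passed the limit on low values, miR-22 had the most unequal arms and miR-423 the least but one. The next after miR-22 were miR-142, a leukocyte miRNA, at a median ratio of 56.2 and miR-21 at 27.5, while miR-6119 at 3.74 and miR-1388 at 1.09 stood beside miR-423. These ratios follow from the levels by which the members were chosen and are a description. As a share of both arms, miR-22-5p ran from 0.0780% (Wilson 95% interval 0.0667% to 0.0913%) to 0.198% (0.181% to 0.216%), and miR-423-3p from 24.0% (23.8% to 24.2%) to 44.9% (44.4% to 45.3%). Such intervals cover counting error only. The paper states that library protocols influence miRNA sequencing, mainly by way of adaptor ligation, and their part in these ratios was not tested.

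**Figure D2:**
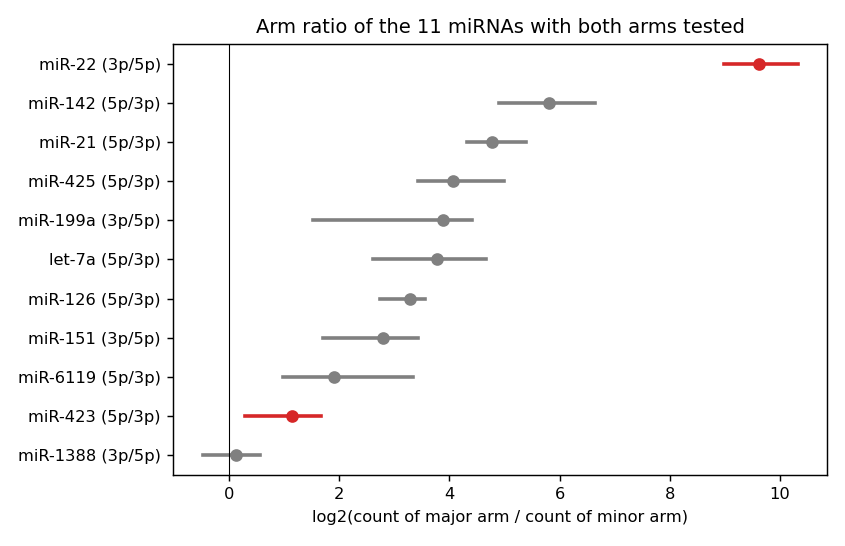
log2 of the count of the more abundant arm over that of the other for the 11 miRNAs with both arms tested. Points are medians and lines the range over 24 libraries, with miR-22 at 9.62 and miR-423 at 1.15 in red.

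The arm ratio does not depend on how a library is scaled, so its differences between days were tested within heifers, by every sign change of the 8 differences. Each day enters 2 of the 3 comparisons, which are therefore not independent. The miR-423 ratio was lowest on Day 0. It was 1.23, 1.97 and 3.00 in the lowest, median and highest library on Day 0, 2.01, 2.29 and 3.17 on Day 8, and 2.09, 2.34 and 3.06 on Day 16. Of the Day 0 libraries, 5 lay below the lowest of Day 8, and those of heifers 16 and 18, at 1.23 and 1.26, lay furthest below. The mean log2 ratio was 0.92 ± 0.43 on Day 0 (SD, n = 8), against 1.29 ± 0.24 for Day 8 and 1.27 ± 0.20 for Day 16.

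Between Day 0 and Day 16 the log2 ratio of miR-423 differed by 0.35 ± 0.41 (SD, n = 8), with the ratio higher on Day 16 in 7 of 8 heifers (exact permutation test of the signs, two-sided, p = 0.0391). This did not pass adjustment over the 11 arm pairs (adjusted exact p = 0.430). At an exact p under 0.05 there was 1 of the 11 pairs in this comparison, or 9.09%, and none passed an adjusted p under 0.1 (0%). Day 8 was above Day 0 by 0.37 ± 0.55 in 5 of 8 heifers (exact p = 0.0938, adjusted exact p = 0.516), and Day 16 differed from Day 8 by −0.02 ± 0.35, with the ratio higher in 4 of 8 (exact p = 0.922, adjusted exact p = 0.922). In both of these comparisons again 9.09% of the 11 pairs had an exact p under 0.05 and 0% passed adjustment. The smallest p that 8 heifers allow is 0.00781.

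Leaving out any 1 heifer gave 0.25 to 0.41 for Day 16 against Day 0. Heifers 16 and 18 were picked after their values were seen, for their low Day 0 ratios, so that leaving them out had to lower the differences from Day 0 and is given as a description. Without both, Day 16 was above Day 0 by 0.15 ± 0.20 in 5 of 6 heifers (exact p = 0.156, adjusted exact p = 0.756) and Day 8 above Day 0 by 0.14 ± 0.36 in 3 of 6 (exact p = 0.375, adjusted exact p = 0.688). Both Day 0 libraries were low in miR-423-5p, with the lowest and next to lowest levels of all 24. Heifer 18 also had the highest miR-423-3p of all, at 14379 RPMM, while heifer 16 had 9490 RPMM. The erythrocyte markers took 6.65% of the counts of the Day 0 library of heifer 16, the lowest of all 24, and 24.3% for heifer 18. These 2 libraries held 1299679 and 2029531 miRNA counts, the smallest and next to smallest of Day 0, and the part of library size in the result was not tested.

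The miR-22 ratio was 505, 755 and 1281 in the lowest, median and highest library on Day 0, 603, 877 and 1188 on Day 8, and 592, 804 and 1013 on Day 16. Heifers 18 and 16 gave the lowest and the highest value of Day 0, so the library with the lowest miR-423 ratio was also the one with the highest miR-22 ratio. The log2 ratio of miR-22 differed from Day 0 by 0.17 ± 0.51 on Day 8, with 5 of 8 heifers higher, and by 0.06 ± 0.60 on Day 16, with 6 of 8 higher (SD, n = 8, exact p = 0.313 and 0.711, adjusted exact p = 0.688 and 0.782). Between Day 8 and Day 16 the difference was −0.11 ± 0.37, higher in 3 of 8 (exact p = 0.422, adjusted exact p = 0.655).

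Counting error was a small part of the spread between libraries, which come from separate animals and days. Over the 24 libraries the SD of the log2 ratio was 0.31 for miR-22, where counts alone give 0.077, and 0.34 for miR-423, where they give 0.0083. Heifers took up 16.1% of the variance of the miR-22 ratio and days 5.54%, and for miR-423 they took up 23% and 25.9%. With 8 heifers but 3 days the share of heifers is expected to be the larger without any effect, and neither share was tested.

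**Figure D3:**
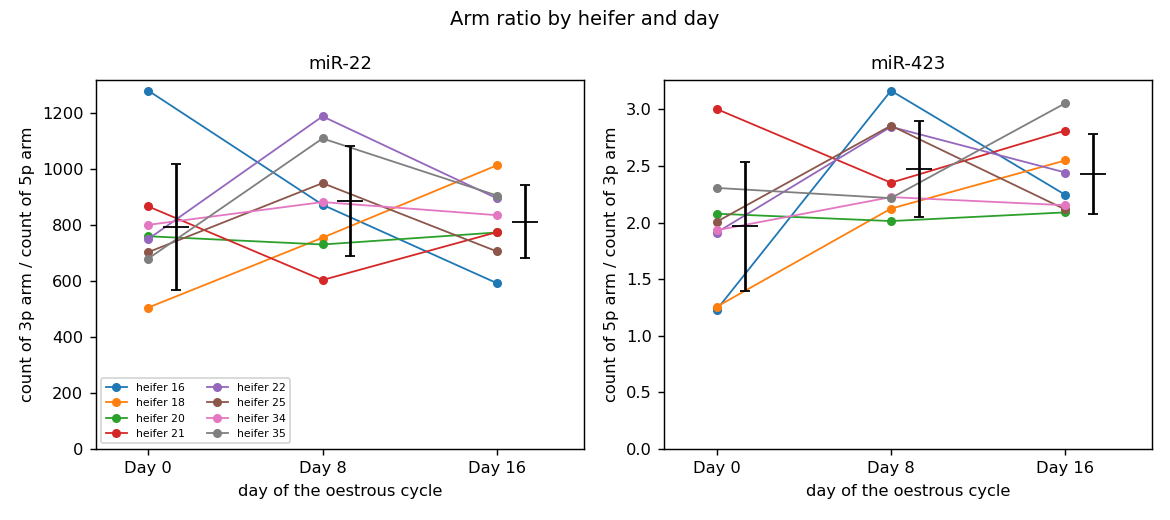
Ratio of the counts of both arms (3p over 5p for miR-22, 5p over 3p for miR-423) on Days 0, 8 and 16, with 1 line for each of the 8 heifers and black bars for the mean ± SD of a day. The 2 lowest points of miR-423, at 1.23 and 1.26, are heifers 16 and 18 on Day 0.

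None of the 4 miRNAs passed the test for a change with the day of the cycle. The question was which plasma miRNAs mark oestrus, and edgeR's quasi-likelihood test on raw counts, with the heifer as a term, was adjusted over 181 miRNAs with a threshold of 0.1. For an effect of day the adjusted p-values of edgeR were 0.764 for miR-22-3p, 0.710 for miR-22-5p, 0.468 for miR-423-5p and 0.771 for miR-423-3p. Among all 181 miRNAs, 0% passed adjustment for an effect of day and 12.7%, or 23, had an unadjusted p under 0.05, while DESeq2 passed 8 at the adjusted threshold.

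With TMM scaling, miR-423-5p had the largest fold changes of the 4 against Day 0, but not between Days 8 and 16. It was above Day 0 by 0.25 on Day 8 (SE 0.16, edgeR adjusted p = 0.433) and by 0.31 on Day 16 (SE 0.16, edgeR adjusted p = 0.375) on the log2 scale. In TMM-scaled counts, for which library sizes are adjusted so that most miRNAs keep their level, it was the higher in 6 of 8 and 7 of 8 heifers. In RPMM it was the higher in 6 of 8 and 5 of 8, and the difference of Day 16 from Day 0 was 0.19 with limma. With total counts that difference was 0.12, the smallest of the 4 arms in size, beside −0.37 for miR-22-5p, −0.32 for miR-22-3p and −0.23 for miR-423-3p. In TMM-scaled counts miR-423-5p was at 31928 ± 6116 CPM on Day 0 (SD, n = 8). It was at 37843 ± 8227 CPM on Day 8 and 39697 ± 7742 CPM on Day 16, with overlap between all 3 days. On this scale the single differences from Day 0 to Day 16 ran from −0.14 to 0.82. Between Days 8 and 16 the fold change with TMM was 0.05 (SE 0.16, edgeR adjusted p = 0.974). Without heifer 16 the difference of Day 8 from Day 0 was 0.07.

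The partner arm miR-423-3p lay the other way or near 0. It was at −0.13 on Day 8 (SE 0.13, edgeR adjusted p = 0.645) and −0.03 on Day 16 (SE 0.13, edgeR adjusted p = 0.927) against Day 0, and at 0.10 on Day 16 against Day 8 (SE 0.13, edgeR adjusted p = 0.910). In TMM-scaled counts 5 of 8 heifers were lower on Day 8 than on Day 0, and 5 of 8 were lower on Day 16. The paper's PCR array, run on pools of the same plasma, put this arm higher on both later days than at oestrus. That difference did not remain significant in the paper after adjustment for multiple testing. The array values were not re-analysed, and the cause of the opposite direction was not tested.

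No miR-22 arm passed the test in any comparison. miR-22-3p was at 0.01 on Day 8 against Day 0 (SE 0.13, edgeR adjusted p = 0.962), −0.11 on Day 16 against Day 0 (SE 0.13, edgeR adjusted p = 0.672) and −0.12 on Day 16 against Day 8 (SE 0.13, edgeR adjusted p = 0.910). In 7 of 8 heifers Day 16 was below Day 0, with single differences of −0.26 to 0.30 in TMM-scaled counts. In RPMM the mean difference of Day 16 from Day 8 was −0.29 ± 0.43 (SD, n = 8), again lower in 7 of 8, but on that scale the median of all 181 miRNAs was also lower, by −0.17 with limma, while it was at 0.00 with TMM. The erythrocyte markers, which share the total with it, averaged 21.4%, 21.0% and 29.9% of the counts on the 3 days in turn, and their part in these differences was not tested. miR-22-5p was at −0.19 on both Day 8 and Day 16 against Day 0 (SE 0.18, edgeR adjusted p = 0.645 and 0.653) and at −0.01 on Day 16 against Day 8 (SE 0.18, edgeR adjusted p = 0.999). Without heifer 18 the differences from Day 0 were −0.064 on Day 8 and −0.020 on Day 16, without heifer 21 that of Day 8 was −0.32, and without heifer 16 that of Day 16 was −0.34.

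Between Days 0 and 8, 1.1% of the 181 miRNAs passed adjustment, namely miR-381 and miR-154c, and 14.4% had an unadjusted p under 0.05. Between Days 0 and 16, 0% passed and again 14.4% had an unadjusted p under 0.05, and between Days 8 and 16 these shares were 0% and 3.87%. None of the 4 arms had an unadjusted p under 0.05 in edgeR with all heifers in any of the 3 comparisons. For miR-423-5p on Day 16 against Day 0 it was under 0.05 with DESeq2 and, without heifer 34, in edgeR, with adjusted p-values of 0.235 and 0.400. Fold changes were above 0 for 2 of the 4 arms on Day 8 against Day 0, where 57.5% of all 181 were, for 1 of 4 on Day 16 against Day 0 (50.3% of all) and for 2 of 4 on Day 16 against Day 8 (50.3% of all). In counts simulated from these libraries for Day 8 against Day 0, changes of 0.32 on the log2 scale were called for 7 of 15 miRNAs, changes of 0.58 for 11 of 15 and changes of 1 for 15 of 15 among the 181. Of 136 miRNAs simulated without a change, 3 were called. All the changes were simulated together, and the adjustment is less strict among many changes. A lone change of the same size may therefore be called less often. Counts were also drawn independently for each miRNA, with a spread estimated from these libraries. The shares called are therefore not the chance of a call for any of the 4 arms.

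**Figure D4:**
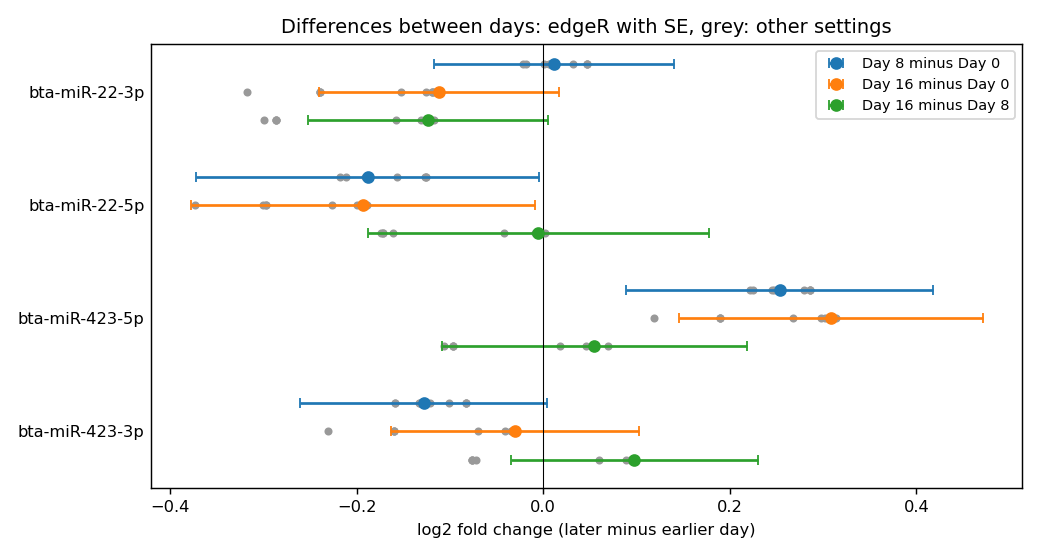
log2 fold change of each arm between pairs of days, later minus earlier, from edgeR with its SE (coloured points and bars) and under the other settings (grey points). The highest edgeR value is that of miR-423-5p on Day 16 against Day 0, at 0.31, and no arm passed an adjusted p of 0.1.

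miR-423-3p was the steadiest of the 181 tested miRNAs across the 24 libraries. The SD of its log2 RPMM was 0.22, against a median of 0.45 over all 181, and the next were miR-665 at 0.25 and miR-669 at 0.26. miR-423-5p was at 0.31 and miR-22-3p at 0.35, placed 13 and 31 from the smallest, and miR-22-5p was at 0.42, placed 69. The place depends on the scale. With TMM-scaled counts miR-22-3p moved to place 3, with an SD of 0.20, while miR-423-3p took place 12 at 0.24 and miR-423-5p place 50. As a share of miRNA counts, miR-423-3p and miR-423-5p stood at places 5 and 6 and miR-22-3p at 53. Among the 50 most abundant miRNAs, miR-423-3p was at place 1 in RPMM, 9 in TMM-scaled counts and 2 as a share of counts. It stayed at place 1 in RPMM without heifer 16, 18, 20, 21, 22, 25 or 34, and took place 2 without heifer 35. The places of the other arms in RPMM were less stable, at 2 to 23 for miR-423-5p (2 without heifer 16), 20 to 52 for miR-22-3p (52 without heifer 16) and 52 to 83 for miR-22-5p.

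**Figure D5:**
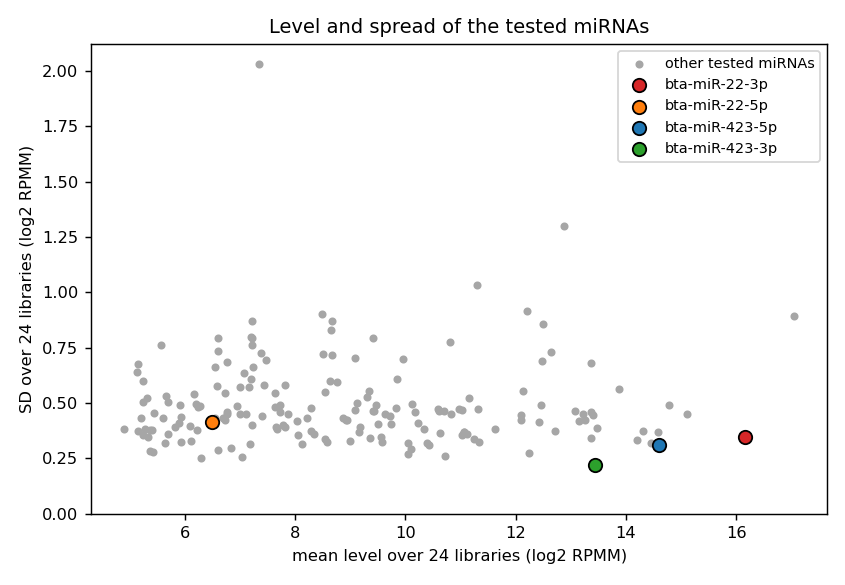
Mean and SD of log2 RPMM over 24 libraries for the 181 tested miRNAs, with the 4 arms in colour. miR-423-3p, with an SD of 0.22, is the lowest point, and miR-22-5p, at 0.42, lies near the median of 0.45.

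Heifers accounted for 39.8% of the variance in log2 RPMM of miR-22-3p, 14.8% for miR-22-5p, 47% for miR-423-5p and 36.1% for miR-423-3p, against a median of 47.5% over the 181. The day accounted for 13.8%, 9.16%, 15.1% and 9.01%, against a median of 8.36%. As for the arm ratios, both heifers and days take up some variance without any effect, heifers the more. None of these shares was tested. By heifer, the mean of miR-22-3p over the 3 days ran from 59751 RPMM in heifer 18 to 95869 RPMM in heifer 35, and that of miR-423-5p from 19469 RPMM in heifer 18 to 28375 RPMM in heifer 21. The means of miR-423-3p lay closer together, from 9481 RPMM in heifer 16 to 12680 RPMM in heifer 34.

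The arms of 1 hairpin did not have each other as their closest match. By Pearson correlation of log2 TMM-scaled counts over 24 libraries, 3 from each of 8 heifers and all sharing the scaling, miR-22-3p was most like miR-148a (r = 0.79), miR-29a (0.76) and miR-2285k (0.73), and its own 5p arm came 23 among 180 (0.42). miR-22-5p was most like miR-1388-3p (0.88), miR-2957 (0.80) and miR-152 (0.80). The last 2 had nearly equal means, at 716 and 722 RPMM, and nearly equal fold changes on Day 8 against Day 0, at −0.28 and −0.27. They may thus not be separate matches, and whether they count the same reads was not tested. For miR-423-5p these were miR-6529 (0.78), miR-296-3p (0.71) and miR-375 (0.70), and its 3p arm came 56 (0.25). miR-423-3p was most like miR-665 (0.72), miR-33b (0.67) and miR-2284y (0.62). The abundant arms miR-22-3p and miR-423-5p were at −0.16. These values are a description.

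Within single days, where the 8 heifers are independent, 12 relations were computed, those between the arms of each hairpin and those of each arm ratio to the share of erythrocyte markers. Between the arms of miR-22, Pearson's r was 0.38 on Day 0, 0.15 on Day 8 and 0.71 on Day 16 (n = 8, exact permutation p = 0.343, 0.730 and 0.0484, adjusted p = 0.637, 0.974 and 0.345), with Spearman's rho at 0.38, −0.12 and 0.81 (exact permutation p = 0.360, 0.793 and 0.0218, adjusted p = 0.856, 0.977 and 0.261). Without the 2 heifers farthest from the median, these r were −0.17, 0.41 and 0.50, so that of Day 0 changed sign. For miR-423, r was −0.15, 0.59 and 0.69 on Days 0, 8 and 16 (n = 8, exact permutation p = 0.643, 0.118 and 0.0575, adjusted p = 0.964, 0.472 and 0.345) and rho −0.07, 0.38 and 0.67 (exact permutation p = 0.882, 0.360 and 0.0831, adjusted p = 0.977, 0.856 and 0.499). Without 2 heifers these r were 0.55, −0.01 and 0.32, so all 3 values depended on those heifers. The r of Day 0 changed sign, and that of Day 8 fell to just below 0. Leaving out the outermost heifers also narrows the range of levels.

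Between the miR-423 arm ratio and the erythrocyte share, r was 0.00, −0.01 and 0.04 on Days 0, 8 and 16 (n = 8, exact permutation p = 0.997, 0.973 and 0.924, adjusted p = 0.997 for each) and rho 0.05, −0.02 and 0.12. Without the 2 heifers farthest from the median these r were −0.63, −0.34 and −0.29, so values near 0 do not show that the ratio and the share were unrelated. For miR-22, r was −0.36, −0.44 and 0.53 (n = 8, exact permutation p = 0.371, 0.272 and 0.170, adjusted p = 0.637, 0.637 and 0.510) and rho −0.24, −0.50 and 0.33. Without 2 heifers they were −0.19, −0.53 and −0.61, so that the r of Day 16 changed sign. With 8 heifers a day, none of the 12 relations passed adjustment.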

How the data were processed

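Small RNA from plasma of 8 heifers on 3 days was sequenced as 24 Illumina TruSeq libraries. Reads were trimmed, filtered and assigned by the authors to bovine and human miRBase entries with sRNAbench, with up to 1 mismatch (Bowtie 0.12.9 per the submitters' processing notes). The authors deposited raw counts by miRNA. They also deposited RPM values, called RPMM, scaled to reads mapped to the genome. Depth is given above. 0 sample columns were left unused.

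Counts of 181 miRNAs above 25 RPMM in at least 6 of 8 libraries of each day were scaled by TMM and tested with edgeR 4.0.16 in R 4.3.3. The model held terms for day and heifer, with Benjamini-Hochberg adjustment over the 181. The SE of a fold change is its size divided by the square root of F. Same-numbered libraries came from 1 animal, and their deviations from the day means correlated at a median of 0.337, against −0.0450 between heifers. Arm ratios were tested in Python 3.11.15 and adjusted over 11 pairs. Alternatives were DESeq2 1.42.0, limma 3.58.1 with a pseudocount of 1 or 0.1 RPMM, a repeated-measures test, other scalings and limits, no term for the heifer, and leaving out each heifer. The test was tried on simulated counts.

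Members, marker lists and tests were chosen with earlier results of these data known. Named besides the 4 arms are the 3 miRNAs most correlated with each, neighbours in mean RPMM, the 3 most and least unequal arm pairs, markers, and miR-669, miR-381 and miR-154c, named after their values were seen.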

Additional observations from a re-analysis of the deposited data

How the results depend on the processing

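No arm and no arm ratio passed its adjusted threshold under any alternative run. The direction of small differences depended on the scaling. Between Days 0 and 8, miR-22-3p was at −0.018 with total counts and at −0.022 when miR-486 was left out of the total, in place of 0.01. Between Days 8 and 16, miR-423-5p was at −0.11 with total counts, −0.10 with limma at either pseudocount and −0.10 with the repeated-measures test, in place of 0.05, and miR-423-3p at −0.072 with total counts and −0.077 with the other 3, in place of 0.10. With total counts the median of all 181 miRNAs moved to −0.19 between Days 0 and 16 and −0.17 between Days 8 and 16. Without the replicate block (no term for the heifer), miR-22-5p between Days 8 and 16 went from −0.01 to 0.0022, and no call of an arm or ratio changed. The miR-423 arm ratio between Days 8 and 16 was at 0.012 without heifers 16 and 18, a setting chosen after seeing the data, in place of −0.02. The causes were not tested. For miR-423-5p between Days 0 and 16, 0.31 became 0.12 with total counts and 0.19 with limma at either pseudocount or the repeated-measures test, and for miR-22-5p −0.19 became −0.37 with total counts and −0.30 with limma.

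Leaving out each heifer in turn gave −0.32 to −0.064 for miR-22-5p between Days 0 and 8 and −0.34 to −0.020 between Days 0 and 16. It gave −0.080 to 0.059 for miR-22-3p between Days 0 and 8, −0.14 to 0.065 for miR-423-3p between Days 0 and 16, and −0.10 to 0.11 for miR-22-5p and −0.00059 to 0.19 for miR-423-5p between Days 8 and 16. The arm ratio ran from −0.073 to 0.23 for miR-22 between Days 0 and 16 and from −0.089 to 0.048 for miR-423 between Days 8 and 16. For miR-423 between Days 0 and 16 it ran from 0.25 to 0.41, with a smallest adjusted exact p of 0.172.

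Of all miRNAs between Days 0 and 8, 2 passed adjustment, against 8 with RLE size factors, 15 with DESeq2, 5 under filterByExpr, 1 with low counts kept, 0 with total counts, limma or the repeated-measures test, and 0 to 33 without single heifers (33 without heifer 21, 0 without 16, 22, 25, 34 or 35). Between Days 0 and 16 it was 0, against 3 with DESeq2, 3 with low counts kept, 1 under filterByExpr, 4 with the repeated-measures test and 3 without heifer 21. For an effect of day it was 0, against 8, 3 and 2 with DESeq2, low counts kept and filterByExpr and 14 without heifer 21. miR-22-5p, with 155 to 620 counts, is the arm that depth limits most.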
